A study of Mus musculus with 6 samples.

Results

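The sterol and fatty acid synthesis genes described here are 33 genes chosen by name, out of 52609 annotated mouse genes with transcripts in the data. They cover 7 enzymes of the mevalonate steps, 10 of the squalene and sterol steps, 6 genes of the SREBP system and sterol transport, 9 fatty acid enzymes, and the cholesterol exporter gene Abca1. All 33 matched 1 annotated gene each, through 171 transcripts, and all 33 passed the filter on low counts. RNA was sequenced from epiblast stem cells of the mouse, a primed pluripotent type derived from dissected epiblasts and kept here on inactivated fibroblast feeder cells. There were 3 libraries with Activin A and 3 without it. Activin A was used at 20 ng/mL. All 6 libraries come from cells with FGF2 (10 ng/mL), IWP2 (5 µM), which keeps Wnt ligands from being secreted, and SB431542 (2 µM), an inhibitor of the receptors that Activin A signals through. Activin A was therefore compared in the presence of its own inhibitor.

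The grouping follows the sample titles. For replicate 1 without Activin A the growth factor label lists Activin A, in conflict with the title and with the genotype label. The design text speaks of 2 lines, while the labels separate the groups by Activin A only, so line and Activin A cannot be told apart. The labels do not say whether the replicates were separate cultures, so the p-values measure the spread between these libraries, which may be technical. Estimated reads numbered 9946521 to 16350923 per library with Activin A, and 13567995 to 14992042 per library without. Over 15448 genes tested with edgeR, 15.2% were called higher with Activin A and 14% lower, 29.2% in all, at an adjusted p below 0.05. All 8 epiblast markers were detected, and their summed level was 1285 to 1342 CPM with Activin A against 621 to 636 CPM without. Of these 8 markers, 7 were called higher with Activin A and 1, Sox2, lower, a share of 100% against that background. Of 12 fibroblast feeder markers, 7 were called higher and 2, Col1a1 and Col1a2, lower with Activin A (75% called). The summed level of the 12 was 667 to 738 CPM with Activin A and 807 to 818 CPM without. Col1a1 (mean 234 CPM with, 341 CPM without) and Col1a2 (124 CPM with, 212 CPM without) were the most abundant of the 12. The lower sum with Activin A therefore went against the 7 markers called higher. Of 6 neural ectoderm markers 5 were tested, with Nes and Zic5 called higher and Sox1 lower (60% called). The summed level of the 6 was 330.3 to 336 CPM with Activin A and 230.5 to 240.0 CPM without, with no overlap. Nes (mean 166 CPM with, 97 CPM without) and Zic5 (97 CPM with, 55 CPM without) were the most abundant. Sox1 (31 CPM with, 47 CPM without) and Pax6 (6.4 CPM with, 7.7 CPM without, not called) were lower in every library with Activin A. Of 8 mesoderm and endoderm markers 2 could be tested, Eomes called higher and Hhex lower, and Mesp1 was at 0 reads in every library. The part of these shifts in the values below was not tested, and fewer cells of a type and less RNA per cell cannot be told apart in such samples.

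Cells make cholesterol from acetyl-CoA by the mevalonate pathway, through squalene and lanosterol, and make fatty acids from the same acetyl-CoA through malonyl-CoA. The SREBP transcription factors, encoded by Srebf1 and Srebf2, raise the transcription of most of these enzymes. SCAP, a sterol sensor, escorts SREBP to the Golgi, where proteases release its active part, and the INSIG proteins hold SCAP and SREBP in the endoplasmic reticulum when sterols are plentiful. The liver X receptors (LXR) raise genes of cholesterol export such as Abca1.

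Promoter stretches are shown for 3 members. Insig1 is a called gene of the SREBP system, and Hsd17b7 has the largest fold of the 33. Hmgcs1, an uncalled enzyme gene, is shown because it alone held the sterol regulatory element motif given below. No called member with a listed promoter held that motif. The stretches come from RefSeq on GRCm38.p6 and are trimmed to bases outside the GENCODE gene. They are parts of the listed promoters and differ in length, at 190 bases (Insig1), 157 (Hmgcs1) and 64 (Hsd17b7). Hsd17b7 also held GGGCGG in a listed promoter of 300 bases, outside the bases shown. Capitals mark matches on either strand to TCACNCCAC (the sterol regulatory element), CCAAT (NF-Y) and GGGCGG (Sp1), and no matches overlap. The stretches of Insig1 (chr5:28071173-28071362, plus strand), Hmgcs1 (chr13:119690194-119690350, plus strand) and Hsd17b7 (chr1:169969242-169969305, minus strand) read as follows.
Insig1: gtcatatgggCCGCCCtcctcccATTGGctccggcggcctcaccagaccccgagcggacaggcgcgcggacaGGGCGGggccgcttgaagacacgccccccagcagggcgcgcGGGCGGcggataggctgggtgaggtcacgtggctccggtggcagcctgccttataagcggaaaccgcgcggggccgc
Hmgcs1: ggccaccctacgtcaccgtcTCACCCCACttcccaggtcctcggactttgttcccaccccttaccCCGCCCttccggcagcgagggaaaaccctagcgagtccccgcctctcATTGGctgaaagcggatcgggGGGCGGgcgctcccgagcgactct
Hsd17b7: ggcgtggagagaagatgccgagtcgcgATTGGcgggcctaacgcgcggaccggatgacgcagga
A promoter of 300 bases was listed for 26 of the 33 members. The sterol regulatory element motif was found for 1 of these 26, Hmgcs1, and for 1.44% of 27025 genes. CCAAT was found for 20 of the 26 members (76.9%) and for 41.1% of genes. GGGCGG was found for 21 of the 26 (80.8%) and for 38.2% of genes. A match describes letters in this window only. A gene counted when any of its listed promoters held the motif, with 34 promoters for the 26 members and 32851 for all genes. The 27025 genes were not limited to those tested here, nor matched to the members in GC content. The differences in share were not tested.

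Most of the pathway differed little between the groups. Of the 33 members, 8 (24.2%) were called by the quasi-likelihood test of edgeR (adjusted p below 0.05), against a background of 29.2% of 15448 genes tested. With Activin A, 3 members rose, Elovl6, Fdft1 and Insig1, against 15.2% of all genes tested. In the same comparison 5 members fell, Hsd17b7, Scap, Acaca, Acly and Stard4, against 14% of all genes tested. The share of members called is near the background, and all 8 called members changed by less than 1.5-fold. The median log2 fold change of the members, with minus without Activin A, was 0.01, and that of all genes tested was -0.0012. The sign of the members' median depended on the setting, and the median of all genes tested moved with it. With upper-quartile scaling the members' median was 0.05, against 0.03 for all genes. With the trend of each library on GC content and length removed it was -0.02, against -0.045 for all genes. With limma-trend on TPM it was -0.01, against -0.03 for all genes. For 31 of the 33 members the 95% interval of the fold change lay within 1.5-fold in either direction, the exceptions being Hsd17b7 and Scap. For 22 members it lay within 1.25-fold.

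Levels were measured as CPM, reads scaled to library size with TMM factors. The 3 values with Activin A all lay above or all below the 3 values without for 15 members, 7 above and 8 below. Over all genes tested this held for 42.9%, with 21.6% above and 21.3% below. The summed level of the 33 members was 11539, 11282.5 and 11517 CPM with Activin A (replicates 1 to 3) and 11361, 11369 and 11344 CPM without, so the groups overlapped. Over all genes tested, 52.2% of the calls were higher with Activin A, and 38.5% after removal of the GC and length trend. When replicate 3 with Activin A was left out, 8 members were called higher and 7 lower, against a background of 36% of genes called. After removal of the GC and length trend 5 were called higher and 12 lower, against 41.4% of genes.

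**Figure D1:**
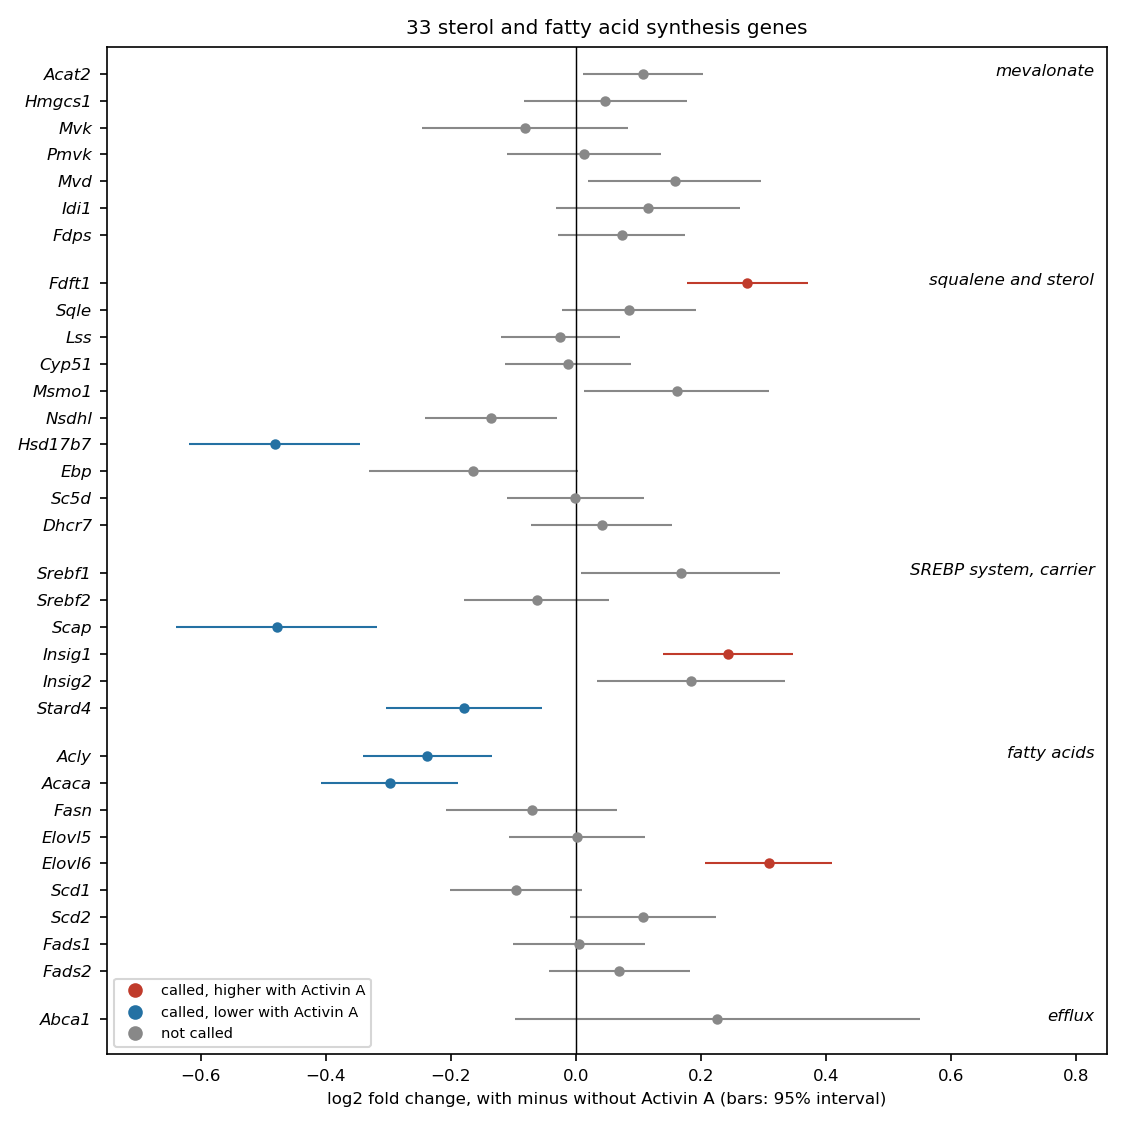
Log2 fold change of each member, with minus without Activin A, with its 95% interval (horizontal axis), ordered by role from top to bottom. Red points are called higher and blue points called lower at an adjusted p of 0.05, grey points are not called. The 8 called members spread from -0.48 (Hsd17b7) to 0.31 (Elovl6), and they fall in 3 of the 5 role groups.

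Compared per length, as TPM summed over a gene's transcripts, the members spanned a wide range of levels. Dhcr7, the enzyme of the last step to cholesterol, was at 363 ± 16.1 TPM with Activin A and 358 ± 11.4 TPM without (SD, n = 3 each). A transcript of 230 bases, Dhcr7-213, held 71.5% of that sum with Activin A, so the level rests on a short non-coding model. Fdps, which makes farnesyl pyrophosphate at the branch point of the pathway, was at 346 ± 14.5 TPM with and 355 ± 2.36 TPM without. The lowest enzyme gene was Hsd17b7, at 8.56 ± 2.13 TPM with Activin A and 12.4 ± 1.101 TPM without. Abca1 was at 0.581 ± 0.137 TPM with and 0.474 ± 0.049 TPM without.

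**Figure D2:**
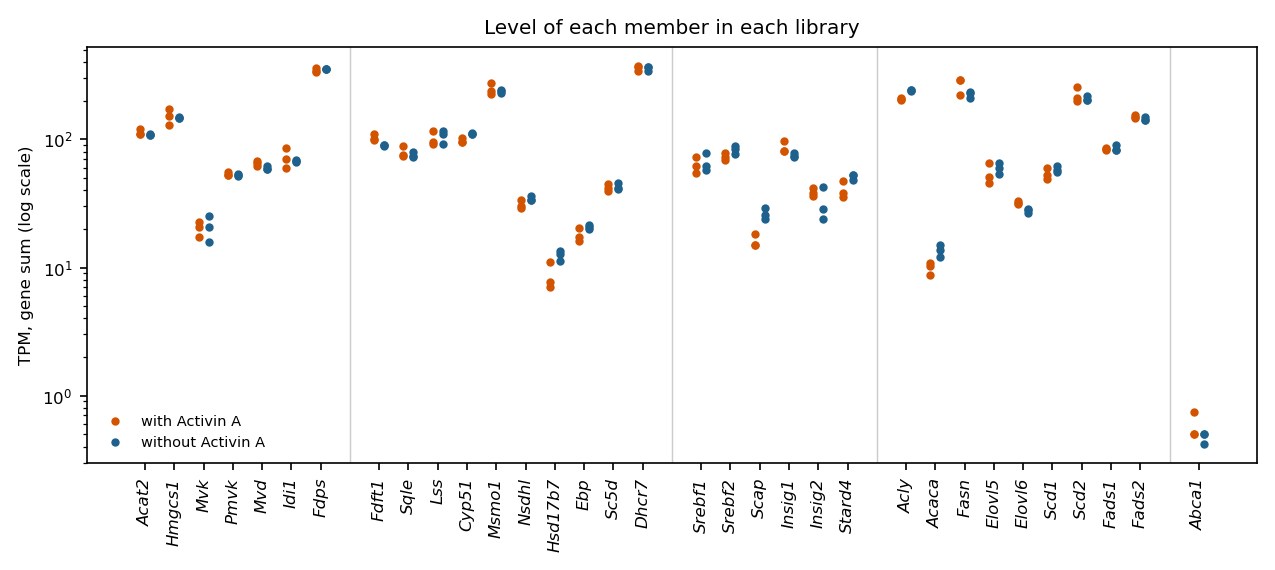
TPM of each member summed over its transcripts (vertical axis, log scale), 1 point per library, with Activin A in orange at the left of each pair and without in blue at the right. Grey lines separate the role groups. Abca1 sits below 1 TPM in every library, far under every enzyme gene.

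None of the 7 mevalonate genes passed edgeR's test, nor DESeq2 or limma-trend, and 2 of them had an unadjusted edgeR p under 0.05. Their log2 fold changes ran from -0.08 to 0.16. Mvd encodes the decarboxylase that makes isopentenyl pyrophosphate. It had 167, 168 and 139.8 CPM with Activin A (replicates 1 to 3), against 142, 143 and 142 CPM without. Replicates 1 and 2 with Activin A were above every library without, and replicate 3 was below them. Its log2 fold change was 0.16 ± 0.06 (SE) (edgeR adjusted p = 0.0817), and when replicate 3 with Activin A was left out it was 0.24 ± 0.04 (SE) (edgeR adjusted p = 9.89e-06). Mvd was called in 3 of 15 alternative settings, at log2 fold changes of 0.06 to 0.24 over the 15.

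Acat2 encodes the cytosolic thiolase that joins acetyl-CoA units at the entry of the pathway. It had 353, 357 and 355 CPM with Activin A, against 329, 324 and 336 CPM without. The groups did not overlap, yet the difference did not pass (log2 fold change 0.11, standard error 0.04, edgeR adjusted p = 0.0897), and it passed when replicate 3 with Activin A was left out (edgeR adjusted p = 0.0108). Acat2 was called in 3 of the 15 alternatives, at log2 fold changes of 0.06 to 0.14 over the 15. Of the 31-base words of Acat2 44.2% recur elsewhere, chiefly in Acat3, so the split of reads between them is uncertain. Idi1, the isopentenyl pyrophosphate isomerase gene, had 309, 277 and 350.2 CPM with Activin A, against 289, 282 and 292 CPM without. Replicates 2 and 3 with Activin A lay on either side of the libraries without it (edgeR adjusted p = 0.234). Hmgcs1, the HMG-CoA synthase gene whose promoter holds the sterol element above, had 725, 646 and 772 CPM with Activin A and 697, 669 and 708 CPM without. The groups overlapped, and the 95% interval of its log2 fold change was -0.08 to 0.18. Idi1 shares 27.1% of its 31-base words, chiefly with Gm13502, and Hmgcs1 13.1%, chiefly with Gm48342 on the opposite strand, so their counts are uncertain in the same way. Fdps shares 27.9%, chiefly with Gm43738. The kinase genes Mvk and Pmvk and the synthase gene Fdps also overlapped, at log2 fold changes of -0.08, 0.01 and 0.07.

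In the squalene and sterol steps 1 of 10 genes rose, 1 fell and 8 did not pass, so 20% were called against 29.2% of all genes tested. Hsd17b7 encodes a ketosteroid reductase that works on the sterol ring when the methyl groups at its C4 carbon are removed. It had 40.8, 38.6 and 44.4 CPM with Activin A, against 57.7, 55.6 and 58.8 CPM without. Every library with Activin A was below every library without. It fell by 0.48 ± 0.06 (SE) on the log2 scale (edgeR adjusted p = 4.82e-05), and its adjusted p was 0.0526 with a transcript length offset and 0.108 with limma-trend on TPM, at log2 fold changes of -0.51 in both. Hsd17b7 (ENSMUSG00000026675.12) lies on chromosome 1 of GRCm38 at 169949535 to 169969241, minus strand.

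Fdft1 encodes squalene synthase, the enzyme that commits farnesyl pyrophosphate to sterols. It had 378, 368 and 364 CPM with Activin A, against 303, 307 and 307 CPM without, and the groups did not overlap. It rose by 0.27 ± 0.05 (SE) on the log2 scale (edgeR adjusted p = 0.000333). With limma-trend on TPM it was not called (adjusted p = 0.126). Of its 31-base words 31.9% also lie in other genes, on either strand, chiefly in Ctsb, its neighbour on the opposite strand. Whether strand was used in the counting is not given in the sources used here, so its count may hold reads of Ctsb.

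Nsdhl encodes the dehydrogenase that acts in the same removal of methyl groups as Hsd17b7. It had 94.0, 94.98 and 96.2 CPM with Activin A, against 104, 106 and 103 CPM without. The groups did not overlap, but the difference missed the threshold (log2 fold change -0.14, standard error 0.05, edgeR adjusted p = 0.0538), and it passed when replicate 3 with Activin A was left out (edgeR adjusted p = 0.00955). Nsdhl was called in 3 of the 15 alternatives, at log2 fold changes of -0.17 to -0.10 over the 15. Msmo1, the methylsterol oxidase gene of that step, had 349, 363 and 435 CPM with Activin A and 341, 347 and 336 CPM without (edgeR adjusted p = 0.0961). The groups did not overlap, and replicate 3 with Activin A stood highest. Lss, the lanosterol synthase gene, was almost level, at 269, 267 and 271 CPM with Activin A and 275, 275 and 272 CPM without (edgeR adjusted p = 0.736). The squalene epoxidase gene Sqle, the demethylase gene Cyp51, the isomerase gene Ebp, the desaturase gene Sc5d and Dhcr7 did not pass, with log2 fold changes of -0.16 (Ebp) to 0.09 (Sqle).

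In the SREBP system the sensor gene Scap fell and Insig1 rose with Activin A, while neither SREBP gene passed. With Stard4, 3 of these 6 genes were called (50%, against 29.2% of all genes tested). Scap had 53.8, 47.1 and 42.3 CPM with Activin A, against 69.2, 65.6 and 66.4 CPM without. All libraries with Activin A were below all libraries without, and they also differed more among themselves. Scap fell by 0.48 ± 0.08 (SE) on the log2 scale (edgeR adjusted p = 0.000229). It was the 1 member called in all 15 alternative settings, at log2 fold changes of -0.67 to -0.37. Scap (ENSMUSG00000032485.14) lies on chromosome 9 at 110333288 to 110384950, plus strand. Of its 31-base words 11.3% recur in other genes, chiefly in 5830462I19Rik on the opposite strand, so reads of such genes may be among its counts.

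Scap's coding transcript and a retained intron transcript were both lower with Activin A. Scap-201, the full-length coding model, had 8.05, 6.60 and 6.85 TPM with Activin A and 10.15, 10.2 and 9.904 TPM without. Scap-202, a retained intron model of 358 bases, had 6.45, 7.68 and 4.71 TPM with and 13.6, 12.7 and 13.5 TPM without. Neither transcript overlapped between the groups. Scap-202 rested on few estimated reads, 7.7 to 19.4 per library with Activin A and 31.6 to 33.8 without. Scap-201 had 411 to 928 over the 6 libraries. These transcript values are estimates and were not tested.

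Insig1, which retains SCAP in the endoplasmic reticulum and is itself an SREBP target, had 302, 304 and 327 CPM with Activin A, against 263, 265 and 259 CPM without. The groups did not overlap. It rose by 0.24 ± 0.05 (SE) on the log2 scale (edgeR adjusted p = 0.00156), and lost its call with limma-trend on TPM alone of the 15 alternatives (adjusted p = 0.247). Insig2, its relative, had 25.9, 25.2 and 26.3 CPM with Activin A and 22.6, 22.3 and 23.2 CPM without. Its groups did not overlap either, but it did not pass (log2 fold change 0.18, standard error 0.07, edgeR adjusted p = 0.0620). Insig1 (ENSMUSG00000045294.11) lies on chromosome 5 at 28071363 to 28078662, plus strand.

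Srebf1 encodes SREBP-1, associated chiefly with fatty acid genes, and Srebf2 encodes SREBP-2, associated chiefly with sterol genes. Srebf1 had 133, 128 and 106 CPM with Activin A and 116, 106 and 107 CPM without. Replicates 1 and 2 with Activin A were above every library without, and replicate 3 lay among them. The log2 fold change of Srebf1 was 0.17 ± 0.07 (SE) (edgeR adjusted p = 0.107). It was 0.26 ± 0.04 (SE) when replicate 3 with Activin A was left out (edgeR adjusted p = 4.80e-05). Over the 15 alternatives Srebf1 was called in 2 and not in 13. Its log2 fold change ran from -0.07 to 0.31 and had the opposite sign in 2 of them. Srebf2 had 392, 389 and 344 CPM with Activin A and 396, 390.1 and 389 CPM without. Its replicate 3 with Activin A was the lowest of the 6 (log2 fold change -0.06, edgeR adjusted p = 0.431).

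Stard4 encodes a soluble carrier that moves cholesterol between membranes and is an SREBP-2 target. It had 266, 259.7 and 304 CPM with Activin A, against 316, 308 and 314 CPM without, with no overlap. It fell by 0.18 ± 0.06 (SE) on the log2 scale (edgeR adjusted p = 0.0319). That call was lost in 7 of the 15 alternatives, with adjusted p-values of 0.0742 to 0.132, and 5 of these each left out 1 library. Leaving out replicate 1 or 2 with Activin A gave log2 fold changes of -0.15 or -0.13, and leaving out replicate 1, 2 or 3 of the other group gave -0.17, -0.19 or -0.18.

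**Figure D3:**
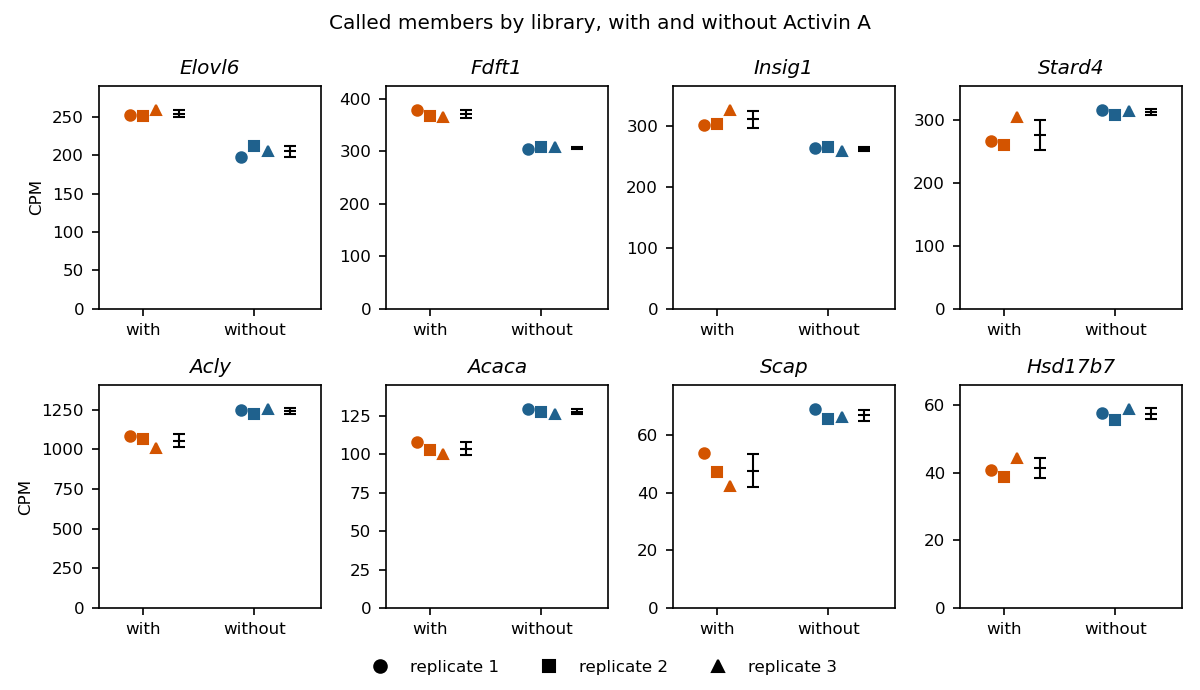
CPM of the 8 called members in each library (vertical axes from 0), with Activin A in orange at the left and without in blue at the right of each panel. Circles, squares and triangles are replicates 1 to 3, and the black bar is the mean with its SD. In none of the 8 panels do the groups overlap, and Scap spreads widely with Activin A, at 42.3 to 53.8 CPM.

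Among the 9 fatty acid genes Acly and Acaca fell and Elovl6 rose with Activin A, so 33.3% were called against 29.2% of all genes tested. Acly, ATP citrate lyase, makes cytosolic acetyl-CoA from citrate. It had 1086, 1068 and 1007 CPM with Activin A, against 1251, 1222 and 1254 CPM without, and the groups did not overlap. Acly fell by 0.24 ± 0.05 (SE) on the log2 scale (edgeR adjusted p = 0.00181), and lost its call with the transcript length offset (log2 fold change -0.19, adjusted p = 0.0890). Its short non-coding transcript Acly-205 went against the gene, at 24.5, 27.4 and 27.8 TPM with Activin A and 18.4, 14.3 and 16.39 TPM without. These transcript values were not tested. Acaca, acetyl-CoA carboxylase, makes malonyl-CoA in the committed step. Acaca had 108, 103 and 100.3 CPM with Activin A, against 129, 128 and 126 CPM without. These groups did not overlap, and Acaca fell by 0.30 ± 0.05 (SE) on the log2 scale (edgeR adjusted p = 0.000487). The Acaca call was lost with limma-trend on TPM (adjusted p = 0.0786). Of the 31-base words of Acaca 33.5% lie also in other genes, chiefly the predicted gene Gm5182.

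Elovl6, which extends palmitate to stearate, had 252, 251 and 259 CPM with Activin A, against 198, 212 and 205 CPM without. The groups did not overlap. It rose by 0.31 ± 0.05 (SE) on the log2 scale (edgeR adjusted p = 0.000185), the largest rise of the 33 members. The call was lost with limma-trend on TPM (adjusted p = 0.131). Elovl5, an elongase for polyunsaturated chains, did not pass, with a log2 fold change of 0.0023 and a 95% interval of -0.11 to 0.11.

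The stearoyl-CoA desaturase genes Scd1 and Scd2 lie together on chromosome 19 and each share under 10% of their 31-base words, chiefly with Scd3. Scd2 was the more abundant, at 222 ± 29.1 TPM with Activin A and 208 ± 9.19 TPM without, while Scd1 was at 54.0 ± 5.50 TPM with and 58.3 ± 3.14 TPM without. Scd1 had 399, 380.3 and 413 CPM with Activin A and 411, 436 and 427 CPM without, which overlap (edgeR adjusted p = 0.169). When replicate 3 with Activin A was left out its log2 fold change was -0.12 (edgeR adjusted p = 0.0109). Scd1 was called in 3 of the 15 alternatives, at log2 fold changes of -0.14 to -0.06 over the 15. Scd2 had 1799, 1753 and 1993 CPM with Activin A and 1708, 1748 and 1690 CPM without. It did not overlap between the groups and did not pass (log2 fold change 0.11, standard error 0.05, edgeR adjusted p = 0.161). The desaturase genes of polyunsaturated fatty acids, Fads1 and Fads2, did not pass, at log2 fold changes of 0.0056 and 0.07.

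Fasn, fatty acid synthase, was chosen for its transcripts after its values were seen. The gene had 1490, 1390 and 1216 CPM with Activin A and 1446, 1429 and 1427 CPM without, and the groups overlapped (log2 fold change -0.07, edgeR adjusted p = 0.451). The more abundant of its long coding transcripts, Fasn-205 of 8333 bases, was lower in the libraries with Activin A, at 83.5, 72.5 and 73.5 TPM, against 88.9, 90.3 and 86.0 TPM without. The longer coding transcript Fasn-201, of 10050 bases, was at 11.9, 11.1 and 13.6 TPM with Activin A and 11.2, 11.8 and 11.1 TPM without, and its groups overlapped. The retained intron model Fasn-202 was at 107, 109 and 73.1 TPM with Activin A and 65.1, 72.5 and 73.8 TPM without. Fasn-203, also a retained intron model, was at 88.3, 95.7 and 57.9 TPM with and 45.3, 60.1 and 57.2 TPM without. In both, replicates 1 and 2 with Activin A were the highest libraries and replicate 3 lay within the range without it. The summed TPM of Fasn averaged 268 ± 41.0 with Activin A against 226 ± 12.7 without (SD, n = 3 each). These transcript values are estimates from reads that the models share, and they were not tested.

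Abca1, the exporter that loads cholesterol onto apolipoproteins, is an LXR target and was low. It had 8.19, 6.95 and 7.58 CPM with Activin A, against 5.60, 5.79 and 8.15 CPM without, on 76 to 134 reads per library. Replicate 3 without Activin A was at the level of the other group. The log2 fold change was 0.23 ± 0.15 (SE), with a 95% interval of -0.10 to 0.55, and did not pass (edgeR adjusted p = 0.295). The part of read number and of the spread between libraries in this was not tested.

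The libraries with Activin A spread more than those without for 29 of the 33 members, by the SD of CPM, the exceptions being Acat2, Nsdhl, Elovl6 and Abca1. Each library was set against the mean of the other 2 of its group on the log2 scale. Replicate 3 with Activin A deviated by -0.30 (Srebf1) to 0.29 (Msmo1), and by more than 10% for 14 members. Replicates 1 and 2 did so for 5 and 6 members, and each library without Activin A for 1 member, Abca1. In replicate 3 with Activin A, Idi1, Msmo1, Stard4 and Hmgcs1 were high, while Srebf1, Mvd, Scap, Mvk and Fasn were low.

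These deviations ran with the GC content of the transcripts. In replicate 3 with Activin A, Pearson's r between deviation and GC content was -0.88 and Spearman's rho -0.84 over the 33 members. The same r was 0.56 and 0.82 in replicates 1 and 2 with Activin A, and 0.33, -0.11 and -0.16 in replicates 1 to 3 without. The points share their library and its depth, and the 3 deviations within a group are not independent of each other. Idi1 has 41.8% GC and Msmo1 46.2%, while Srebf1 has 59.3%, Mvk 59.9% and Fasn 58.7%. Over 10012 genes with a mean over 10 CPM, replicate 3 with Activin A had a median deviation of 0.16 among the genes lowest in GC and -0.20 among those highest in GC, taking GC groups of equal size. Replicate 2 with Activin A ran the other way, at -0.12 and 0.11, and so did replicate 1, at -0.04 and 0.08. The libraries without Activin A stayed between -0.01 and 0.01 in both groups of genes. The part of GC content and depth in the member results was not tested further than the setting that removes the trend.

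**Figure D4:**
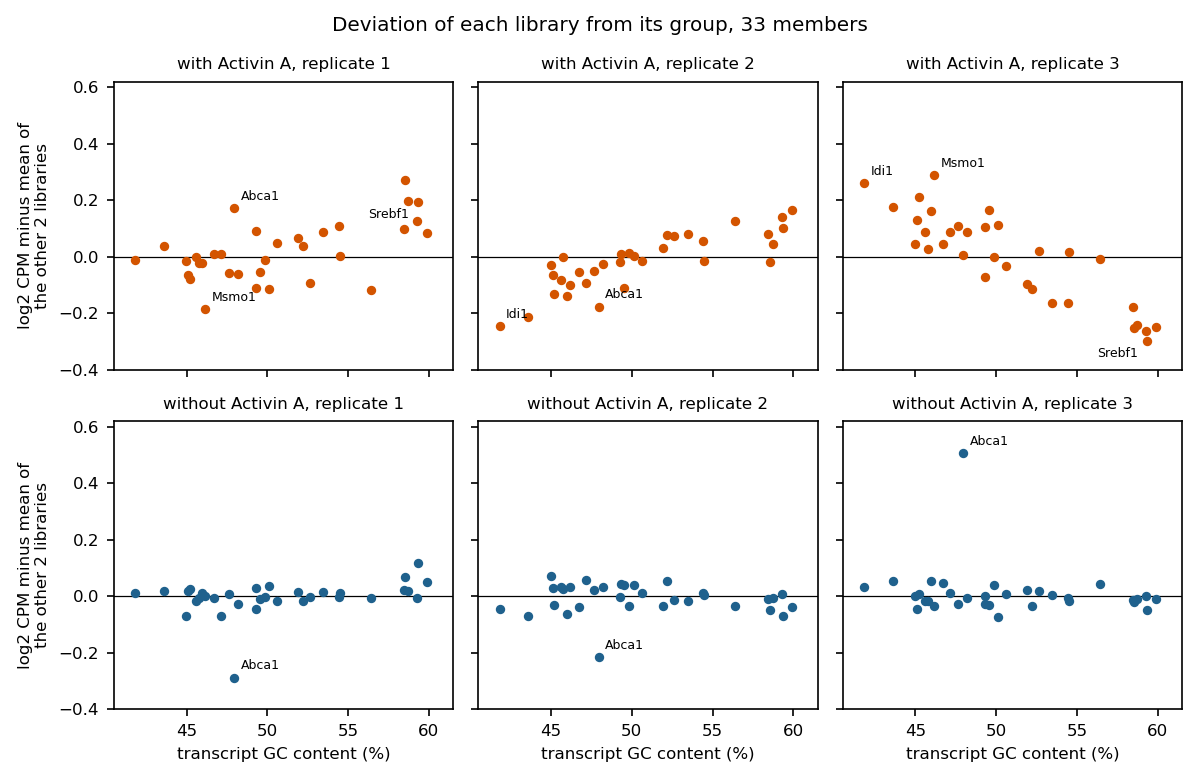
Log2 CPM of each member minus the mean of the other 2 libraries of its group (vertical axis) against the GC content of its transcripts in percent (horizontal axis), 1 panel per library, with Activin A in the upper row and without in the lower. Replicate 3 with Activin A slopes down from Idi1 and Msmo1 to Srebf1, with r = -0.88, and the panels without Activin A lie close to 0 apart from Abca1.

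The members that gained a call differed between these settings. When replicate 3 with Activin A was left out, Mvd, Acat2, Srebf1, Fads2 and Dhcr7 were also called higher, and Nsdhl and Scd1 also lower. After removal of the GC and length trend, Idi1 and Scd2 were also called higher, and Mvk, Lss, Nsdhl, Ebp, Srebf2, Fasn and Scd1 also lower. Nsdhl and Scd1 gained a call in both settings, at log2 fold changes of -0.14 and -0.12 in the first and -0.17 and -0.08 in the second. Over the 15 alternatives, 16 of the 25 uncalled members passed at least 1 setting. The other 9 passed none, namely Hmgcs1, Pmvk, Fdps, Sqle, Cyp51, Sc5d, Elovl5, Fads1 and Abca1. The same count over all uncalled genes is not given here, so the 16 cannot be set against a background. Single alternatives called 10% (limma-trend) to 41.4% (GC and length trend removed) of all genes tested.

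Further genes of lipid handling were read from a list of 51, of which 50 matched and 47 were tested. With Activin A 9 rose and 5 fell, a share of 29.8% against the background of 29.2%. Leaving out replicate 2 without Activin A gave 5 risen genes. The fallen ones numbered 9 and 3 when replicate 3 or replicate 1 with Activin A was left out, and 2 when replicate 1 or replicate 3 without it was left out. Among 13 tested genes of sterol uptake, storage and LXR signalling, 6 rose and 1 fell (53.8% called, against 29.2% of all genes tested), while 3 were higher with DESeq2 and 0 with limma-trend on TPM, where 2 had an unadjusted p under 0.05.

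Vldlr, a receptor of the lipoprotein receptor family, had 27.2, 23.8 and 27.1 CPM with Activin A, against 58.1, 56.2 and 59.6 CPM without. The groups stood far apart. Vldlr fell by 1.15 ± 0.07 (SE) on the log2 scale, or 2.23-fold (edgeR adjusted p = 1.01e-08), a larger change than that of any of the 33 members, and it was called in all 15 alternatives. Soat1, which esterifies cholesterol for storage, had 621, 595 and 675 CPM with Activin A, against 453, 446 and 438 CPM without. It rose by 0.50 ± 0.05 (SE) on the log2 scale (edgeR adjusted p = 5.45e-06). The Soat1 fold shrank to 0.19 with the transcript length offset and the call was lost (adjusted p = 0.0829), as it was with limma-trend on TPM (0.15, adjusted p = 0.381). Npc1, which exports cholesterol from lysosomes, had 172, 166 and 158 CPM with Activin A and 143 CPM in each library without. It rose by 0.21 ± 0.05 (SE) on the log2 scale (edgeR adjusted p = 0.00495), and its call was lost with limma-trend on TPM (adjusted p = 0.196).

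Of the LXR targets, Abcg1 and Mylip were chosen after their values were seen, to stand beside Abca1. Abcg1, a cholesterol exporter gene, had 1.89, 1.68 and 1.596 CPM with Activin A and 0.709, 0.876 and 1.20 CPM without, on 10 to 31 reads per library. Its log2 fold change was 0.91 ± 0.28 (SE) (edgeR adjusted p = 0.0229). Mylip, which encodes a ubiquitin ligase for lipoprotein receptors, had 6.78, 6.22 and 5.89 CPM with and 4.61, 4.65 and 5.31 CPM without (edgeR adjusted p = 0.0426). Both rested on few reads. The call of Abcg1 was lost without replicate 1 or 2 with Activin A and without replicate 1 or 2 of the other group (edgeR adjusted p up to 0.103). That of Mylip was lost without replicate 1 or 2 with Activin A and without any 1 library of the other group (edgeR adjusted p up to 0.161). The LXR genes themselves, Nr1h2 and Nr1h3, did not pass.

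Among 12 further isoprenoid and sterol genes 0 rose in edgeR's test, in DESeq2 or in limma-trend, with 1 higher at an unadjusted edgeR p under 0.05, and 2 fell, among them Mbtps2. The share called was 16.7%, against 29.2% of all genes tested, and DESeq2 and limma-trend each called 1 lower. Mbtps2 encodes the site-2 protease that releases active SREBP. Mbtps2 had 48.0, 44.3 and 55.7 CPM with Activin A and 61.8, 55.6 and 58.5 CPM without. The groups overlapped slightly, and the log2 fold change was -0.26 ± 0.08 (SE) (edgeR adjusted p = 0.0202). The call of Mbtps2 was lost without replicate 1 or 2 with Activin A and without replicate 1 or 3 of the other group (edgeR adjusted p up to 0.110). Mbtps1, the gene of the site-1 protease, did not pass (log2 fold change 0.03).

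Among 22 further fatty acid genes 3 rose and 2 fell, so 22.7% were called against 29.2% of all genes tested, with DESeq2 3 rose and 1 fell, and with limma-trend on TPM 0 rose and 1 fell (3 higher and 3 lower at an unadjusted p under 0.05). Elovl4, an elongase for very long chains, had 13.9, 13.0 and 15.6 CPM with Activin A and 10.3, 8.83 and 10.0 CPM without, with no overlap. It rose by 0.54 ± 0.10 (SE) on the log2 scale (edgeR adjusted p = 0.00136). Lpin1, a phosphatidate phosphatase gene, had 102, 94.3 and 88.0 CPM with Activin A and 78.8, 78.2 and 73.9 CPM without, again with no overlap. It rose by 0.30 on the log2 scale ± 0.06 (SE) (edgeR adjusted p = 0.00184). Both calls were lost with limma-trend on TPM (adjusted p = 0.0922 for Elovl4 and 0.120 for Lpin1). Mid1ip1, whose product activates acetyl-CoA carboxylase, had 80.2, 80.9 and 75.8 CPM with Activin A and 89.8, 91.9 and 92.0 CPM without. It fell by 0.21 ± 0.05 (SE) on the log2 scale (edgeR adjusted p = 0.00868), in the same direction as the carboxylase gene Acaca, and was called in all 15 alternatives.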

How the data were processed

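Poly(A) RNA of 6 samples was profiled with a stranded kit, per the labels' protocols. The deposited files list an estimated count and a TPM value for each of 133618 transcripts in the columns that salmon writes, per the file headers. Salmon, DESeq2 and edgeR are the tools in the submitters' processing notes, which give no version. Of the authors' genome build, annotation and strand setting, none was given in the sources used here. The estimated counts, as deposited, carry no normalization, and TPM, as deposited, accounts for length and library total. Transcripts were matched to GENCODE M21 (GRCm38) by identifier with the version ignored. In all 133399 matched, and the other 219 held 0.131% to 0.149% of reads and were left out. Counts were summed per gene and rounded. Genes were filtered with filterByExpr (minimum count 10, minimum total 15), scaled by TMM and tested with edgeR 4.0.16 (R 4.3.3), robust quasi-likelihood, with Benjamini-Hochberg adjustment over all genes tested. The standard error is the log2 fold change divided by the square root of F. The procedure was tested on simulated data.

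Alternatives used upper-quartile or RLE scaling, DESeq2 1.42.0, no low-count filter, a transcript length offset, limma-trend (limma 3.58.1) on log2(TPM + 1), an offset (mgcv 1.9.3) for the trend of every library on transcript GC and length, whose intercept also re-centres the library, a replicate block, and each library left out. A setting without replicate 3 with Activin A and replicate 1 without was added after seeing the data. Shared words of 31 bases were counted on either strand. All 33 members are accounted for. Values per library were given for the 3 smallest p-values in each role group, always for 8 further members (Srebf1, Srebf2, Insig1, Insig2, Stard4, Scd1, Scd2 and Abca1), and for up to 3 called genes of each further list. A result among these is not reported here. Hmgcs1, Msmo1, Lss and Fasn were added after their values were seen, as were the promoters of Hmgcs1 and Hsd17b7. The members and lists were chosen with earlier results of these data known. Erg28 stood in its list under an older symbol.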

Additional observations from a re-analysis of the deposited data

How the results depend on the processing

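The background of the member counts below also moved with the setting. Leaving out 1 library gave 1763 to 2881 genes higher and 1483 to 2808 lower, of 15766 to 15895 tested. Leaving out both doubted libraries (replicate 3 with Activin A, replicate 1 without) gave 2622 and 2366 of 15600. After removal of the GC and length trend 2458 were higher. Counts of genes called higher and lower with Activin A were 2350 and 2155 of 15448 in the main test, and 2702 and 1737 after upper-quartile scaling. They were 1492 higher with DESeq2, 1113 and 937 with the transcript length offset, 777 and 771 with limma-trend on TPM, and 3931 lower with the GC and length trend removed. Members called higher (3) became 7 with upper-quartile scaling, 0 with limma-trend, 5 with the trend removed, 7 without both doubted libraries (a setting chosen after seeing the data), and 3 to 8 on leaving out 1 library. Members called lower (5) became 3 with the length offset, 2 with limma-trend, 12 with the trend removed, and 4 to 7 on leaving out 1 library. Further lipid genes called higher (9) became 14 with upper-quartile scaling, 4 with the length offset, 0 with limma-trend, 14 with the trend removed and 5 to 13 on leaving out 1 library. Those called lower (5) became 3 with DESeq2, 3 with limma-trend, 15 with the trend removed and 2 to 9 on leaving out 1 library. For limma-trend, 2 members and 5 further genes were higher at an unadjusted p under 0.05. The cause was not tested. No called member changed sign in any setting run.

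Same-numbered libraries did not deviate together, with correlations of -0.02, -0.05 and -0.06 for replicates 1, 2 and 3. The replicate block gave 3 members higher and 5 lower, 8 and 4 further lipid genes, and 2297 and 2125 genes over the whole table, and Mylip (higher, adjusted p = 0.0641) and Elovl1 (lower, adjusted p = 0.0513) lost their calls.

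For low genes such as Abca1 and Abcg1, which rest on few reads, the log2 fold changes are imprecise, with standard errors of 0.15 and 0.28.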
